A study of Mus musculus with 34 samples.

Results

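The sites described here were the p65 (RelA) binding sites that appeared after LPS at gene promoters in mouse bone marrow-derived dendritic cells (BMDCs). They were selected on the p65 peak calls themselves: each was a p65 peak of LPS-treated control cells, overlapped no p65 peak of untreated control cells, and overlapped a promoter. A promoter reached 2.5 kb upstream and downstream from where the longest transcript begins, for any annotated gene. Of 5465 p65 peaks in LPS-treated control cells, 884 met this rule and are called induced promoter sites. Another 3855 were equally induced but lay away from promoters (induced distal sites), and 146 lay at promoters where p65 was already bound before LPS.

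The cells came from C57BL/6 mice 8 weeks old, cultured from bone marrow with GM-CSF for 6 days and selected for CD11c. WT BMDCs carried CreER and KO BMDCs carried CreER together with CTCFfl/fl, and 4-OH tamoxifen was given to all cultures on the first day only, so Cre was induced in WT cells too. CreER was expressed from Rosa26 and is not limited to dendritic cells. WT and KO were untreated, and WTLPS and KOLPS received 100 ng/ml LPS for 3 h. Chromatin immunoprecipitation followed by sequencing (ChIP-seq) was deposited as 1 peak list for each antibody and condition, 30 lists in all, so the spread between cultures could not be measured. All 10 dendritic and myeloid marker genes examined had an H3K4me3 peak at the promoter in every condition, as had 3 of 8 lymphocyte markers (Lck, Pax5 and Ebf1), 1 of 6 granulocyte and erythroid markers (Klf1) and 1 of 4 hepatocyte and neuron markers (Neurod1). CTCF peaks numbered 60537 in WT and 54020 in WTLPS, against 20151 in KO and 11576 in KOLPS, so the KO lists still held CTCF peaks.

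RelA/p65 is a transactivating subunit of NF-κB. It is held in the cytoplasm by IκB proteins until Toll-like receptor signalling, such as that of TLR4 after LPS, leads to their degradation, and it then enters the nucleus and binds κB motifs at promoters and enhancers of inflammatory genes. In dendritic cells these targets include cytokines, chemokines and costimulatory molecules, and also IκB proteins and other inhibitors that end the response. H3K4me3 marks active or poised promoters, H3K27ac marks active promoters and enhancers, SMC1 is a core subunit of the cohesin ring, and CTCF is the DNA-binding protein at which cohesin loops commonly stop.

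The following 101 bp windows, centred on the p65 summit in WTLPS, show where the κB motif lay at the 8 strongest sites that had it within 50 bp, among the leading sites and the listed immune genes. They are from GRCm38 (mm10), + strand, and capitals mark the match to the consensus κB motif GGGRNNYYCC, searched on either strand. In its 10 bases R is A or G, Y is C or T and N is any base.
Atp6v1e2 (chr17:86950363-86950463): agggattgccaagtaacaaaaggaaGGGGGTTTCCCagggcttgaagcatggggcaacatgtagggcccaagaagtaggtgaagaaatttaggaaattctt
Nfkbiz (chr16:55838844-55838944): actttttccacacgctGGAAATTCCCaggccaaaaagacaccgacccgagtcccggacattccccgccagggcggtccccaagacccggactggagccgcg
Il1f6 (chr2:24215189-24215289): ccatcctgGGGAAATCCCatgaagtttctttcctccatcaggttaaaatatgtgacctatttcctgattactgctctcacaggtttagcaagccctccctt
Gbp5 (chr3:142496777-142496877): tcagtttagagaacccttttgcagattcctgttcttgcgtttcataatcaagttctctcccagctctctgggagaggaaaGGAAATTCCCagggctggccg
Junb (chr8:84976573-84976673): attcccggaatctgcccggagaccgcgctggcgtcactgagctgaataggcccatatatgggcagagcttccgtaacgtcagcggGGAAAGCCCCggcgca
Il1f9 (chr2:24186140-24186240): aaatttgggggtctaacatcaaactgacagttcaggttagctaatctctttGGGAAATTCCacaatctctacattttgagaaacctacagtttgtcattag
Dusp2 (chr2:127335429-127335529): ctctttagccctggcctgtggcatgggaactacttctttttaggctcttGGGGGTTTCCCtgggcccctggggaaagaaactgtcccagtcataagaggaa
Cd40 (chr2:165055190-165055290): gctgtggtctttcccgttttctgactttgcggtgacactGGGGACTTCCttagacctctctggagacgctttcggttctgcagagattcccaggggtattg
Il1f6 and Il1f9 encode IL-36 cytokines of the IL-1 family, Nfkbiz encodes the nuclear IκB protein IκBζ, and Cd40 encodes a costimulatory receptor. Gbp5 encodes an interferon-inducible GTPase, Dusp2 a phosphatase of MAP kinases, Junb an AP-1 subunit and Atp6v1e2 a subunit of the vacuolar proton pump. The windows of Nfkbiz and Gbp5 held the same 10 bases, GGAAATTCCC. The capitals of Atp6v1e2 and of Dusp2 each hold 2 overlapping matches.

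κB motifs were found at the summits more often than nearby. The consensus motif was present in 126 of 884 windows, or 14.3% (95% Wilson interval 12.1 to 16.7), against 1.98% of windows 1 kb to either side of the same summits. At the start sites of all 55413 genes the share was 2.18%, and at those of protein-coding genes 3.03%. The difference from the start sites of all genes was 12.1 percentage points (9.92 to 14.5). Induced distal sites held the motif in 10.8% of windows and promoter sites bound before LPS in 30.1%, so the induced promoter sites were 3.41 points above the former (1.03 to 6.04) and -15.9 points from the latter (-24 to -8.6). A looser motif, GGG and CC with any 5 bases between them on either strand, which includes the consensus, matched 27.4% of the induced promoter sites and 18.6% of all start sites. It matched 27.8% of protein-coding start sites, a difference of -0.407 points (-3.31 to 2.68), so no excess over those was seen. All intervals given here cover counting error over sites only, and no p-values are given because sites are not replicates of a condition.

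For most other motifs searched, the induced promoter sites stood closer to the distal sites than to start sites. The AP-1 site TGANTCA was present at 10.5% of the induced promoter sites, 11.8% of the induced distal sites and 2.41% of all start sites. The GC box GGGCGG, common at CpG-rich promoters, was present at 4.86% of them against 13% of all start sites and 1.04% of the induced distal sites. CCAAT matched 14.4% of the induced promoter sites and 14.2% of all start sites, and GAGGAAGT, a site of the myeloid factor PU.1, 3.17% and 1.26%. The interferon-type element, GAAA and again GAAA after any 2 bases, was present at 2.6% of the induced promoter sites and 1.15% of all start sites, and the CTCF core motif at 1 site (0.113%). All motifs were searched on both strands. Median GC content was 46.5% at the induced promoter sites and 44.5% at the distal sites, and the median ratio of observed to expected CpG was 0.249 and 0.186. GC and CpG were taken over wider windows around the summit than the motifs.

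**Figure D1:**
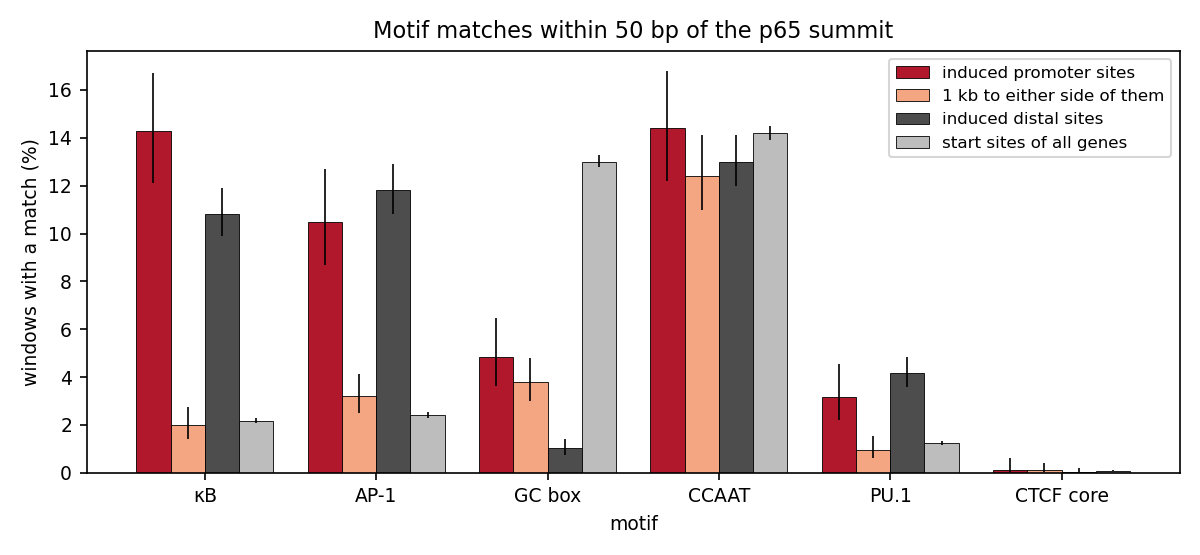
Share of 101 bp windows (%) with a match to each motif, for the 884 induced promoter sites, windows 1 kb to either side of them, the 3855 induced distal sites and the start sites of all genes; error bars are 95% Wilson intervals. κB matches stood at 14.3% of the induced promoter sites against 1.98% of the flanking windows, and GC boxes at 4.86% against 13% of start sites.

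The sites lay throughout the promoter window rather than on the start itself. The summit lay a median of 1034 bp from the start site of the assigned gene, with 18.2% of sites within 250 bp and 48.8% within 1 kb. Upstream positions held 55.4% of the summits. Of the 884 sites, 550 (62.2%) overlapped the promoter of a protein-coding gene and 334 overlapped promoters of other gene types only. A total of 144 sites lay at promoters of 2 or more genes and 41 genes had 2 or more sites, so neighbouring sites are not independent. The sites touched 963 genes of any type, including 544 of 21938 protein-coding genes (2.48%).

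**Figure D2:**
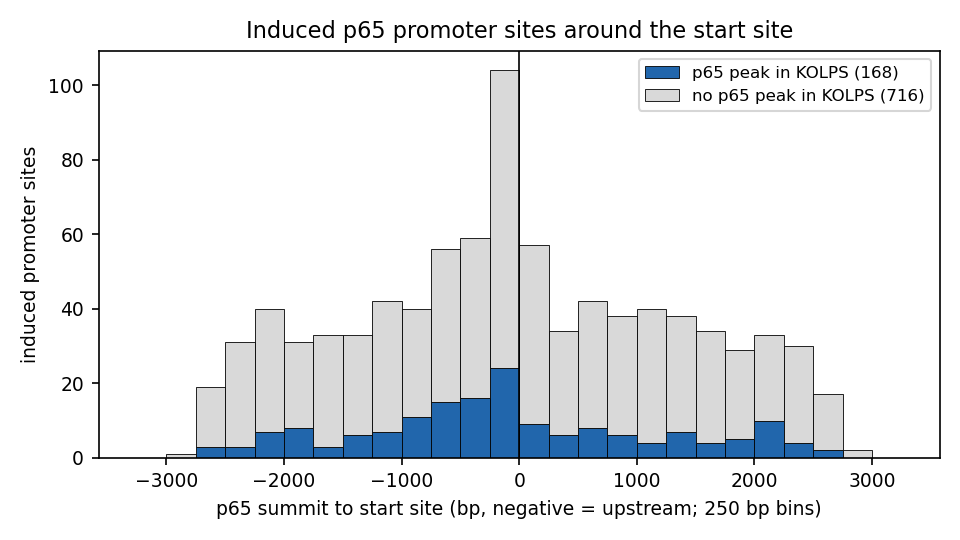
Number of induced promoter sites by distance of the p65 summit from the start site (bp, 250 bp bins, negative values upstream), stacked by whether a p65 peak was also called in KOLPS. The tallest bin lies just upstream of the start, and sites extend to both edges of the 2.5 kb promoter.

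The p65 signal of these sites in WTLPS was used to choose them and is given as a description. The deposited fold of a peak is the number of fragments piled up at its summit over the local background, each plus 1, and the 2 deposited values of a peak (fold and p) allow the fragment number to be computed. In WTLPS the sites had 6 to 74 fragments at the summit (median 11) and folds of 3.71 to 40.4 (median 6.47). The local background was most often 0.855 fragments. The weakest included a site at Hcfc2 with fold 3.77 and -log10 p 4.50. Among promoter sites left out because of a WT peak, the shortest overlap was 98 bp, at Nsun6, and the weakest WT peak had fold 5.25, at Tgif1. The farthest start site of a member lay 2500 bp from the peak edge and the nearest of a distal site 2507 bp. The p65 lists began at -log10 p of 6.05 in WT and 4.35 in WTLPS, against 5.46 in KO and 5.39 in KOLPS, so absence from WT or KOLPS was judged at a stricter limit than presence in WTLPS.

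The strongest sites at protein-coding genes were at Atp6v1e2 (74 fragments), Cxcl2 (55), Saa3 (49), Sbds (46), Clec4e (40) and Ntng2 (39). Rab3c (37 fragments), Rab11fip1 (36), Tbk1 (35), Igsf6 (33), Marco (32) and Nfkbiz (31) followed. Cxcl2 is a neutrophil-attracting chemokine, Saa3 an acute-phase serum amyloid, Clec4e the C-type lectin receptor Mincle, Marco a scavenger receptor, and Tbk1 a kinase that acts downstream of Toll-like receptors. Summits of Nfkbiz, Marco, Igsf6, Saa3 and Cxcl2 lay close to the start site (that of Cxcl2 at -276 bp), whereas those of Atp6v1e2 (-2542 bp) and Rab11fip1 (2396 bp downstream) lay near the edge of the promoter window.

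Most induced promoter sites had no p65 peak in LPS-treated KO BMDCs. KOLPS p65 peaks overlapped 168 of the 884 sites, or 19% (16.6 to 21.7), against 22.7% of all 5465 WTLPS p65 sites, which include those bound before LPS. The KOLPS p65 library had a background of 0.817 fragments, close to the 0.855 of WTLPS. Had the WTLPS fragments been thinned to that background and held to the KOLPS limit, 844 of the 884 sites would have been expected to pass. Of the sites so weighted, 19.4% had a KOLPS peak. The thinned counts were those used to choose the sites, so the expected number is no independent check. The part of coverage in the missing peaks was not tested. Without LPS, KO p65 peaks overlapped 21 sites (2.38%), 16 of which also had a KOLPS peak. The share over all WTLPS p65 sites was 7.61%, but that set includes sites bound before LPS, which the rule left out here. Induced distal sites stood at 1.69% (difference 0.689 points, -0.246 to 1.97). A missing peak gives no level, and in a pool of cells binding in fewer cells and weaker binding in each cannot be told apart: the lowest KOLPS summit at these sites had 8 fragments.

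Promoter sites retained p65 in KOLPS slightly more often than distal sites. The share was 15.5% at induced distal sites, 3.52 points below the promoter sites (difference 0.8 to 6.45), and 14.3% when the distal sites were weighted to the WTLPS strength of the promoter sites. Strength in WTLPS separated the sites much further. In 5 groups of rising -log10 q (the p-value after correction for multiple tests), 7.41%, 8.42%, 15.9%, 19.4% and 50.3% of the induced promoter sites had a KOLPS peak, against 3.56%, 8.05%, 10%, 15.6% and 39% of the distal sites. Within those groups the interval of the difference excluded 0 in the weakest (3.85 points, 0.514 to 8.62) and in the middle group (5.84 points, 0.577 to 12.4), and included it in the group between them (0.374 points, -3.46 to 5.49). In the fourth group it was 3.74 points (-2 to 10.5) and in the strongest 11.3 points (2.64 to 19.9). Promoter sites bound before LPS, which were stronger in WTLPS (median fold 13.5), had a KOLPS peak in 76% of cases.

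**Figure D3:**
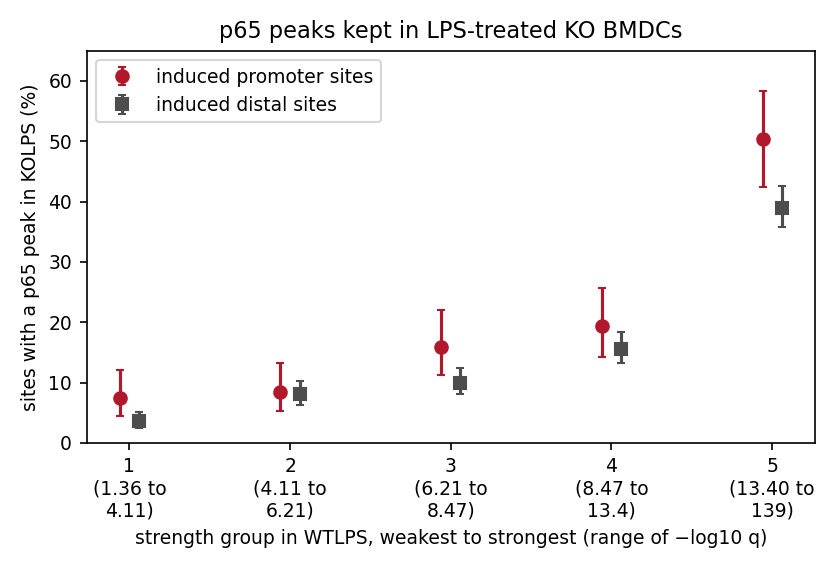
Share of p65 sites (%) with a p65 peak in KOLPS, by group of WTLPS peak strength (5 groups over all induced sites, range of -log10 q on the axis), for induced promoter and induced distal sites; error bars are 95% Wilson intervals. The share rises from 7.41% to 50.3% at promoter sites and from 3.56% to 39% at distal sites.

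Where p65 was called in both LPS-treated genotypes, the KOLPS signal was a little below that of WTLPS at the middle of the distribution. The WTLPS fold was a median of 9.16 at the 168 retained sites and 6.47 at the 716 others. At the retained sites the ratio of KOLPS to WTLPS summit fragments, each per background fragment, was a median of 0.897 (quartiles 0.643 and 1.26) and lay under 1 at 96 sites. Because every site had to be called in WTLPS, and the retained ones in KOLPS too, this ratio describes only sites above both limits.

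Retained sites differed from the others in sequence and chromatin. Of sites with the consensus κB motif, 29.4% (22.1 to 37.8) had a KOLPS p65 peak, against 17.3% of those without (difference 12.1 points, 4.29 to 20.9), with median WTLPS folds of 7.01 and 6.47. An observed over expected CpG ratio of at least 0.6 around the summit was found at 101 sites. Of these, 35.6% were retained, against 16.9% of the other 783 (18.8 points, 9.69 to 28.8), although the median WTLPS fold of the 101 was the lower (5.93 and 7.01). Sites with H3K4me3 in WTLPS were retained in 24.1% of cases and those without in 13.6% (10.6 points, 5.43 to 15.6), at the same median fold of 6.47. With H3K27ac already present in untreated KO the share was 22.4% and without it 8.97% (13.4 points, 8.02 to 18). H3K4me1 went the other way: in WT, sites with it were retained in 17.4% of cases and those without in 24.5% (-7.16 points, -14 to -0.97), and in KO the difference was -6.9 points (-13.2 to -1.08). STAT5 peaks were taken in WT and KO BMDCs after GM-CSF for 15 min. Sites with a WT STAT5 peak were retained in 29.1% of cases and the others in 15.9% (13.2 points, 6.71 to 20.2), with a median WTLPS -log10 q of 7.32 and 6.21.

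Cohesin and p65 were found together in KOLPS, while for CTCF at the site the interval of the difference included 0. An SMC1 peak in KOLPS was present at 91.7% of the retained sites and 62.6% of the others (29.1 points, 22.9 to 34). Without LPS the retained sites already had SMC1 more often. The shares were 80.4% and 65.6% in KO (14.7 points, 7.25 to 21.1) and 82.7% and 73.2% in WT (9.55 points, 2.41 to 15.6). Of the 93 sites with a WT CTCF peak, 14 (15.1%) were retained, and of the 791 without, 154 (19.5%). That difference was -4.42 points with an interval of -11 to 4.61, which leaves room for either direction.

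The chromatin of the induced promoter sites was largely present before LPS. In untreated WT BMDCs 75.3% of the sites overlapped an H3K27ac peak, 75% an SMC1 peak, 54.4% an H3K4me3 peak and 76.9% a peak of H3K4me1, a mark of enhancers and promoter flanks. CTCF overlapped 10.5% and the repressive mark H3K27me3 2.15%. H3K4me3 was 41.8 points more frequent than at induced distal sites (38.4 to 45.2) and H3K4me1 differed by -13.9 points (-17 to -11.1). H3K27ac (17.1 points, 13.7 to 20.2), SMC1 (6.96 points, 3.66 to 10.1) and CTCF (3.75 points, 1.72 to 6.07) were each more frequent at the promoter sites.

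**Figure D4:**
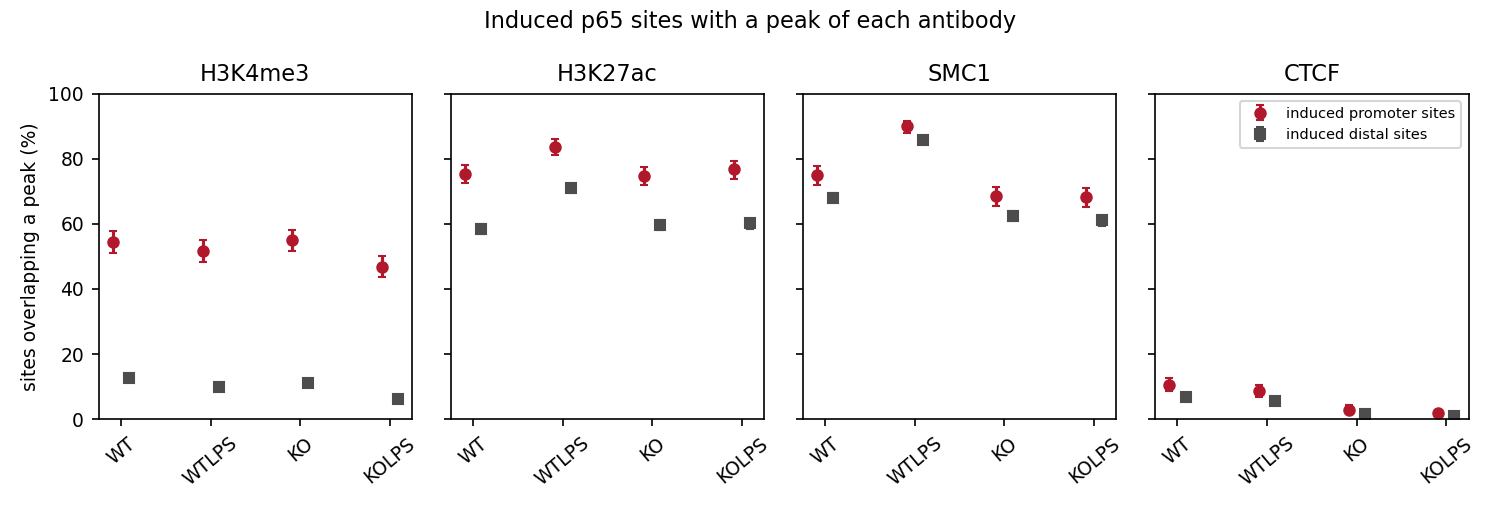
Share of sites (%) overlapping an H3K4me3, H3K27ac, SMC1 or CTCF peak in each of the 4 conditions, for the 884 induced promoter and 3855 induced distal sites; error bars are 95% Wilson intervals, and each condition is 1 peak list. SMC1 at the promoter sites stood at 75% in WT and 89.9% in WTLPS, against 68.4% in KO and 68.1% in KOLPS.

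SMC1 showed the largest change with LPS among the 4 antibodies in WT cells. The share of induced promoter sites with an SMC1 peak went from 75% in WT to 89.9% in WTLPS, a difference of 14.9 points (12.4 to 17.5), with 142 sites that had a peak only with LPS (16.1%, against 16.3% of all WTLPS p65 sites) and 10 only without (1.13%, against 0.659%). In KO cells the share was 68.4% without and 68.1% with LPS, a difference of -0.339 points (-3.22 to 2.54), with 83 sites gained (background 6.84%) and 86 lost (background 8.51%). The LPS change in KO minus that in WT was -15.3 points (-18.8 to -11.8). KO stood -6.56 points from WT without LPS (-9.07 to -4.05), with 37 sites with a peak only in KO (background 2.93%) and 95 only in WT (background 8.44%). With LPS the genotype difference was -21.8 points (-24.8 to -18.9), with 207 sites with SMC1 in WTLPS only (background 23.5%) and 14 in KOLPS only (background 0.75%). SMC1 peaks were present in all 4 conditions at 493 sites, in none at 66 and in WTLPS alone at 74. The SMC1 gains and losses at the promoter sites were near the shares over all WTLPS p65 sites, and the LPS change in WT was -2.73 points from that at distal sites (-5.58 to 0.109). With peaks limited to -log10 p of at least 10 in every list, the LPS change in WT was 25.1 points. Over the promoters of all protein-coding genes the SMC1 share changed with LPS by -3.32 points in WT and -7.73 in KO, and over the 544 promoters by 7.35 and -1.1. The SMC1 lists held 63638 peaks in WT and 57354 in WTLPS, against 29965 in KO and 17241 in KOLPS. The SMC1 background was 5.404 fragments in WT and 5.765 in WTLPS, against 5.338 in KO and 4.495 in KOLPS. The part of list size and background in these shares was not tested.

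H3K27ac rose in share with LPS in WT, while the interval of the change in KO included 0. It overlapped 75.3% of the sites in WT and 83.7% in WTLPS (8.37 points, 5.79 to 11), with 108 sites gained (background 15.5%) and 34 lost (background 4.78%). In KO it overlapped 74.8% and in KOLPS 76.7% (1.92 points, -0.533 to 4.38), with 70 gained (background 8.22%) and 53 lost (background 8.18%). The LPS change in KO minus that in WT was -6.45 points (-9.58 to -3.32). Without LPS the genotypes differed by -0.566 points (-3.12 to 1.99), with 64 sites in KO only (background 9.52%) and 69 in WT only (background 7.87%). With LPS the difference was -7.01 points (-9.58 to -4.45), with 38 sites in KOLPS only (background 5.05%) and 100 in WTLPS only (background 14.1%). Here the promoter sites changed less than the distal sites: the LPS change in WT was -4.24 points from the distal one (-7.21 to -1.27), and the difference between KOLPS and WTLPS 3.75 points from it (0.815 to 6.69). With peaks limited to -log10 p of at least 10, the LPS change in WT was 16.8 points and the difference between KOLPS and WTLPS -12 points. The latter was -2.83 points when windows of 500 bp either side of the summit were used. Under the rule that at least 50% of the p65 peak be covered, the change between KO and KOLPS turned to -8.02 points (-10.9 to -5.18). It was 2.94 points with windows of 500 bp either side of the summit (0.918 to 4.96) and 2.72 points with equal limits for the H3K27ac lists (0.117 to 5.32), so its direction depended on the setting. The H3K27ac background was 0.748 fragments in KO and 0.801 in KOLPS, against 1.173 in WT and 1.198 in WTLPS. This background is not a count of reads, and its part in these shares was not tested.

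H3K4me3 was lower in share with LPS, by little in WT cells and by more in KO cells. The share was 54.4% in WT and 51.6% in WTLPS (-2.83 points, -4.69 to -0.969), with 23 sites gained (background 1.81%) and 48 lost (background 4.89%). It was 54.9% in KO and 46.8% in KOLPS (-8.03 points, -10 to -6.06), with 7 gained (background 0.512%) and 78 lost (background 6.35%). This change was -2.95 points from that at distal sites (-5.06 to -0.835). The distal share was only 11.2% in KO and 6.12% in KOLPS, with 211 of 3855 sites lost. The difference in points therefore does not mean that marked promoter sites lost H3K4me3 more often. KO and WT differed by 0.452 points without LPS (-1.45 to 2.36), with 39 sites in KO only (background 2.8%) and 35 in WT only (background 4.26%). KOLPS and WTLPS differed by -4.75 points (-6.66 to -2.84), with 17 sites in KOLPS only (background 1.08%) and 59 in WTLPS only (background 5.31%). The WT change was -6.22 points when 50% of the p65 peak had to be covered, and its interval included 0 at -log10 p of at least 10 and with promoters of 1 kb. Peaks were present in all 4 conditions at 389 sites and in none at 352. At the scale of the whole promoter of the 544 protein-coding genes, H3K4me3 was present at 90.3% of the promoters in WT and 91.7% in WTLPS, against 90.1% in KO and 89.5% in KOLPS. The base pairs covered within the 5001 bp promoter had medians of 3147, 3026, 3216 and 2774 in the same order. The WT share was 1.47 points higher with LPS (0.229 to 2.71), and the KO share differed by -0.551 points (-1.85 to 0.747). The median change in covered bases with LPS was -40.5 bp in WT and -308 bp in KO, against -174 and -418 bp at the promoters of 11933 genes chosen for H3K4me3 and no p65 peak in WTLPS, so covered bases fell there too. The H3K4me3 background was 1.231, 1.154, 1.201 and 1.127 fragments.

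CTCF was present at few of the sites. It overlapped 10.5% in WT and 8.6% in WTLPS, against 2.94% in KO and 1.81% in KOLPS. LPS went with a change of -1.92 points in WT (-3.15 to -0.695), with 7 sites gained (background 0.64%) and 24 lost (background 2.07%), and of -1.13 points in KO (-1.83 to -0.434), with 0 gained (background 0.0183%) and 10 lost (background 0.787%). KO differed from WT by -7.58 points (-9.38 to -5.78), with 69 sites lost (background 6.18%) and 2 gained (background 0.238%). KOLPS differed from WTLPS by -6.79 points (-8.47 to -5.1), with 61 sites in WTLPS only (background 5.32%) and 1 in KOLPS only (background 0.0366%). With windows of 500 bp either side of the summit the LPS changes were -3.17 points in WT and -1.92 in KO. At 15 sites CTCF was called in all 4 conditions. The CTCF background was 3.738 fragments in WT and 3.533 in WTLPS, against 2.950 in KO and 2.821 in KOLPS. Anywhere in the promoters of the 544 genes, CTCF was present at 43% in WT and 38.6% in WTLPS, against 23.2% in KO and 10.7% in KOLPS. KO differed from WT there by -19.9 points (-24.2 to -15.5) and KOLPS from WTLPS by -27.9 (-32.1 to -23.8), while over all protein-coding genes, of which 29.5% had CTCF in WT, the differences were -10.4 and -17.1 points.

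H3K4me3 was most frequent at the sites nearest to a start. Within 250 bp, 70.8% of 161 sites had H3K4me3 in WT, compared with 66.3% of 270 sites at 250 to 1000 bp and 41.5% of 453 sites beyond. The share with a KOLPS p65 peak was 20.5%, 23% and 16.1%, with overlapping intervals (15 to 27.4, 18.3 to 28.3 and 13 to 19.8). SMC1 in WTLPS was present at 91.9%, 90% and 89.2% of them, and in KOLPS at 75.8%, 66.3% and 66.4%.

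Of the genes themselves, the 10 lists of immune and regulatory genes held 73 with an induced promoter site. The lists were read against the 2.48% of all protein-coding genes with such a site. They were composed with the NF-κB response in mind, so their high shares are a description of known targets and not an independent sign.

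NF-κB subunits and inhibitors had an induced site at 7 of 23 genes: Rela, which encodes p65 itself, the IκB genes Nfkbib, Nfkbid and Nfkbiz, the inhibitory genes Tnfaip3 and Tnip1, and Traf1, a signalling adaptor. A p65 site bound before LPS lay at the promoter of 7 of the 23, and a KOLPS p65 peak somewhere at the promoter of 8 of the 23. Only Nfkbiz retained its induced site in KOLPS, with 31 fragments in WTLPS and 21 in KOLPS, and it had a KO p65 peak without LPS. H3K4me3, H3K27ac and SMC1 overlapped the Nfkbiz site in all 4 conditions.

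Cytokine genes had an induced site at 12 of 25: Ltb, Il1b, Il1rn, Il1f6, Il1f9, Il6, Il12b, Il23a, Il27, Ebi3, Il15 and Il18. Il1b, Il1f6, Il1f9 and Il6 retained a site in KOLPS, while a KOLPS p65 peak lay somewhere at the promoter of 8 of the 25. At Il6, an inflammatory cytokine, the summit at -189 bp had 29 fragments in WTLPS and 11 in KOLPS. At Il1b, 1 of its 2 sites was retained, with 24 and 10 fragments. At Il1f6 the numbers were 27 and 8, and at Il1f9 18 and 15. Thus these 4 sites had fewer fragments in KOLPS, and Il1f9 came closest to its WTLPS value. The Il6 site was the only cytokine site of these with CTCF, called in WT (fold 6.33) and WTLPS (fold 5.29) and in neither KO condition.

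Il12b encodes the subunit shared by IL-12 and IL-23, and Il23a the subunit particular to IL-23. The Il12b site (chr11:44398836-44400047) had 19 fragments in WTLPS and no KOLPS peak. H3K4me3 overlapped it in WTLPS only (fold 7.43), and SMC1 in all 4 conditions with folds of 8.59 in WT and 10.1 in WTLPS, against 3.63 in KO and 4.37 in KOLPS. CTCF folds there were 17.3, 13.9, 6.08 and 5.76 in the same order, so both proteins had their lower folds in KO cells. The Il23a site had 14 fragments, no KOLPS peak and no H3K4me3 in any condition, with H3K27ac called in WTLPS (fold 8.65), KO (4) and KOLPS (5.55) but not in WT.

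Chemokines and chemokine receptors had an induced site at 10 of 24 genes: Ccl5, Ccl6, Ccl9, Ccl17, Ccl22, Cxcl2, Cxcl3, Cxcl9, Cxcl16 and Ccrl2. Ccl9, Cxcl2, Cxcl16 and Ccrl2 retained a site in KOLPS. The retained sites of Ccl9, Cxcl2 and Ccrl2 also had a KO p65 peak without LPS, and that of Cxcl16 did not. The Cxcl2 site (chr5:90902979-90903876) had 55 fragments in WTLPS and 45 in KOLPS, the highest KOLPS value of all sites at protein-coding genes. SMC1 folds at Cxcl2 were 8.28 in WT and 17.6 in WTLPS, against 6.31 in KO and 12.9 in KOLPS, higher with LPS in each genotype, and CTCF was called in WT (9.5) and WTLPS (5.74) only. Ccrl2, an atypical chemokine receptor, had 4 sites, of which 2 were retained, the stronger with 25 fragments in WTLPS and 28 in KOLPS. Ccl9 had 3 sites, of which only the strongest was retained, with 15 and 17 fragments, and Cxcl16 had 11 and 13 at its retained site. These chemokine sites had similar numbers in both LPS conditions, whereas Ccl5, a T-cell attractant with 2 sites of 17 fragments each, and Cxcl3 with 18 had no KOLPS peak.

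Costimulation, adhesion and antigen presentation genes had an induced site at 6 of 30: Cd40, Cd80, Icam1, Tnfsf4, H2-Ab1 and H2-D1. Cd40 had 15 fragments in both LPS conditions, and Icam1, an adhesion molecule, retained 1 of its 2 sites with 14 and 16. H3K27ac folds at the Cd40 site were 7.82 in WT and 19.6 in WTLPS, against 8.01 in KO and 13.9 in KOLPS. The Toll-like receptor pathway had a site at 6 of 27 genes: Tlr6, Cd14, Myd88, Ticam2, Irak3 and Tbk1. Tbk1 retained 1 of 2 sites with 35 and 21 fragments, and Irak3, an inhibitor of the pathway, its only site with 10 in each.

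Feedback and immediate early genes had an induced site at 9 of 34, and 6 of the 9 retained one in KOLPS, against 118 of all 544 protein-coding genes with an induced site. Dusp2, Zfp36, Fosl2, Junb, Ier3 and Pim1 were retained, and Dusp16, Cish and Ier2 were not. Zfp36 encodes tristetraprolin, which destabilises cytokine mRNAs. Its 2 sites each had 12 fragments in WTLPS and overlapped KOLPS signal of 23 fragments. Dusp2 had 16 and 19 fragments, Fosl2 7 and 11, and Pim1, a kinase gene, 11 in both. Junb (21 and 10) and Ier3 (18 and 12) had fewer in KOLPS. The Ier3 site also had a KO p65 peak without LPS. H3K4me3, H3K27ac and SMC1 overlapped all 6 of these sites in all 4 conditions.

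Interferon response genes had an induced site at 6 of 32 (Irf1, Stat3, Stat5a, Gbp5, Trim25 and Ifnar1), and none of the 6 had a KOLPS peak. Gbp5 was the strongest with 22 fragments in WTLPS, and the others had 10 or fewer. LPS-induced enzymes and effectors had a site at 10 of 32 genes: Ptgs2, Arg2, Slc7a2, Slc7a11, Saa3, Marco, Plaur, Serpinb2, Slc2a6 and Ptx3. Among them Slc2a6, a hexose transporter, alone retained a site, with 26 and 21 fragments. A KOLPS p65 peak lay somewhere at the promoter of 6 of the 32.

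Saa3 and Marco were the strongest listed genes without a KOLPS peak. The Saa3 site (chr7:46715599-46716151) had 49 fragments in WTLPS. H3K27ac (fold 8.19) and SMC1 (fold 11.4) overlapped it in WTLPS and in no other condition. H3K4me3 overlapped it in WT (3.59) and WTLPS (6.96), and CTCF in WT only (16.8). Somewhere in the Saa3 promoter, however, CTCF was called in all 4 conditions, H3K27ac also in KOLPS and SMC1 also in WT. The Marco site (chr1:120504677-120505287) had 32 fragments, and SMC1 overlapped it in WTLPS (5.62), KO (5.21) and KOLPS (4.55). Ptgs2, the inducible cyclooxygenase, had 10 fragments and no KOLPS peak, with SMC1 at its site in WTLPS only (4.58) and H3K27ac in WTLPS (6.37) and KOLPS (4.44).

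Apoptosis and survival genes had an induced site at 6 of 25 (Bcl2a1a, Bcl2a1b, Birc2, Casp1, Casp4 and Nlrp3). A KOLPS p65 peak, at an induced site or elsewhere, lay at the promoter of 6 of the 25. Bcl2a1a, an anti-apoptotic BCL2 relative, retained 1 of 2 sites with 27 and 8 fragments. It is a near-identical copy of Bcl2a1b, so fragments of the pair may have been placed uncertainly. Of 12 genes of CTCF and cohesin, Stag2 alone had a site, with 7 fragments and no KOLPS peak.

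**Figure D5:**
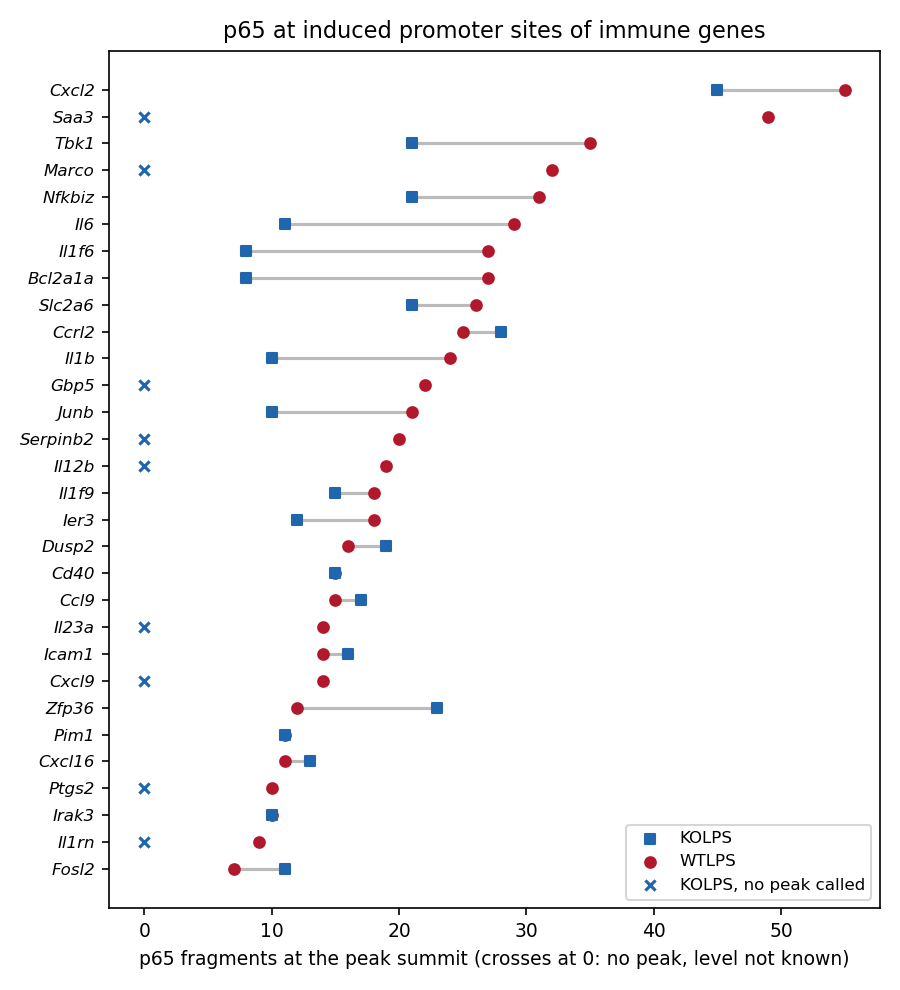
Number of p65 fragments at the peak summit in WTLPS (circles) and KOLPS (squares) for the strongest induced site of 30 listed genes; crosses at 0 mark sites without a KOLPS peak, whose level is not known. Cxcl2 stands highest in both conditions, Saa3 and Marco have no KOLPS peak, and Zfp36 lies higher in KOLPS than in WTLPS. Genes with a KOLPS p65 peak at a site, or with H3K4me3 or H3K27ac gained with LPS in WT, were taken first. The share of retained sites shown is therefore not that of all 73 listed genes.

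Outside the lists, the sites with the highest KOLPS p65 at protein-coding genes were, after Cxcl2, those of Amz2 (37 fragments in KOLPS, 11 in WTLPS), Nr1h3 (31 and 17) and Myo1g (28 and 24), level with Ccrl2. Nr1h3 encodes the oxysterol receptor LXRα and Myo1g a myosin of blood cells. All 3 had more fragments in KOLPS than in WTLPS. Amz2 also had a KO p65 peak without LPS and CTCF in all 4 conditions, with folds of 30 in WT and 20.7 in WTLPS, against 6.84 in KO and 5.23 in KOLPS.

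Gain of a promoter mark with LPS was uncommon among the genes with an induced site. In WT cells H3K4me3 appeared at 10 of the 544 promoters (1.84%), against 1.14% of all protein-coding genes, and H3K27ac at 25 (4.6%), against 2.35%. The 10 genes that gained H3K4me3 were Marco, Slpi, Rnase10, Serpinb2, Il12b, Nt5c1a, Draxin, Cxcl9, Il20rb and Il1rn. Slpi encodes a secreted protease inhibitor, Serpinb2 the plasminogen activator inhibitor PAI-2, Cxcl9 an interferon-inducible chemokine and Il1rn the IL-1 receptor antagonist. In KOLPS an H3K4me3 peak was called at Slpi, Il12b, Nt5c1a and Draxin, and at Marco, Rnase10, Serpinb2, Cxcl9, Il20rb and Il1rn in WTLPS alone. At Nt5c1a and Draxin the mark was already called in untreated KO, and at Slpi and Il12b it was not. Of the 10, Slpi was the only gene whose p65 site had a KOLPS peak (22 fragments in WTLPS, 15 in KOLPS). The Slpi site also had a KO p65 peak without LPS. Among listed genes, H3K27ac was gained at Il1f6, Il23a, Saa3, Ptgs2 and Serpinb2. At Il1f6, Il23a, Ptgs2 and Serpinb2 it was also present somewhere in the promoter in untreated KO, and at Saa3 in KOLPS but not KO. Over the 544 promoters, 22 had H3K27ac in KO and not in WT and 5 the reverse, a difference of 3.12 points (1.27 to 4.98). These were 4.04% and 0.919% of the promoters, against 3.39% and 3.01% of all protein-coding genes, where the difference was 0.378 points (0.0435 to 0.713).

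H3K4me1 and H3K27me3 completed the picture of the sites. H3K4me1 overlapped 76.9% in WT and 77.7% in WTLPS, against 72.2% in KO and 52.6% in KOLPS. The LPS change was 0.792 points in WT (-1.28 to 2.86) and -19.6 points in KO (-22.5 to -16.6). At induced distal sites it was 2 and -14.6 points, and over all WTLPS p65 sites 1.5 and -15.1 points. The fall in KO was not limited to p65 sites. At the promoters of 11933 genes with H3K4me3 and no p65 peak in WTLPS, H3K4me1 was present at 84.2% in KO and 70.9% in KOLPS. Over all protein-coding genes the shares were 56.8% and 46.5%. The H3K4me1 lists held 94694 peaks in WT and 89884 in WTLPS, against 93525 in KO and 79120 in KOLPS. They began at -log10 p of 2.25, 2.24, 2.33 and 2.60 in the same order. The part of list size and limit in these shares was not tested. H3K27me3 overlapped 19 sites in WT (2.15%), 7 in WTLPS (0.792%), 12 in KO (1.36%) and a single site in KOLPS (0.113%). Over all WTLPS p65 sites the shares were nearly the same, at 2.2%, 0.604%, 1.19% and 0.128%. The H3K27me3 lists held 96475, 65880, 95080 and 26960 peaks in that order. STAT5 overlapped 23.3% of the sites in WT and 18.3% in KO, compared with 25.2% and 20.1% of the induced distal sites.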

How the data were processed

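Peak lists were analysed for 30 ChIP-seq libraries of WT, WTLPS, KO and KOLPS BMDCs (1 list per antibody and condition); 4 input libraries were not used here. Per the labels, the authors aligned reads to mm10 with BWA 0.7.12, used Picard 1.77 and called peaks with MACS2 2.1.2; the study's methods name later versions, and describe both peak calling for each replicate and merging of replicates. Which of these a list holds is not given in the sources used here. The deposited fold is the ratio of summit fragment pileup to local background. The deposited p and q values are on the −log10 scale. Promoters came from GENCODE release M21 (longest transcript by exonic length). Peaks overlapping by at least 1 bp were counted as shared. Summit fragments were computed from fold and p, with −log10 p matched within 0.002 for nearly all peaks of the antibodies so treated, and background is the most frequent local background. Shares have 95% Wilson intervals; differences between site groups have Newcombe intervals and differences over the same sites have paired Wald intervals. No test with a p-value was made, since sites are not replicates. Peak limits, promoter size, gene type, overlap, start sites, site width and coverage were varied. Named genes were the 12 strongest sites at protein-coding genes, listed genes (values for 30), the 5 with the highest KOLPS fold and up to 10 sites at promoters that gained H3K4me3. The 30 were taken first from listed genes with a retained site or with H3K4me3 or H3K27ac gained with LPS in WT. The rest followed by WTLPS fold. Sites and gene lists were chosen with earlier results of these data known. Sequences were read from GRCm38. Scripts ran in Python 3.11.15 with pandas 2.3.3, scipy 1.17.1 and pysam 0.24.0 and were tested on simulated data.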

Additional observations from a re-analysis of the deposited data

Results flagged for a closer look

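At the induced promoter sites 3 measures had changes of opposite sign in the compared groups, although in each the interval of 1 of the 2 changes included 0, and the differences were not tested between cultures, since each condition had 1 list. The share of sites with SMC1 changed with LPS by 14.9 points in WT and by -0.339 points in KO, so the KO change minus the WT change was -15.3 points (95% interval over sites -18.8 to -11.8). The share with H3K4me1 changed with LPS by 0.792 points in WT and by -19.6 points in KO, a difference of -20.4 points (-24 to -16.7). For both antibodies the KOLPS list was the shortest, with 17241 peaks of SMC1 and 79120 of H3K4me1, and the part of list size was not tested. The share with H3K4me3 differed between KO and WT by 0.452 points without LPS and by -4.75 points with LPS, a difference of -5.2 points (-7.73 to -2.68). The intervals that included 0 were those of the SMC1 change in KO, the H3K4me1 change in WT and the H3K4me3 difference without LPS. Opposite movement was therefore not shown for any of the 3.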

How the results depend on the processing

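Of 127 results recomputed under the alternatives, 104 stayed within their 95% interval (counts within 1.5 times) and 23 moved; no difference whose interval excluded 0 reversed. The number of induced promoter sites was 459 with peaks of −log10 p of at least 10, 491 with promoters of 1 kb either side and 550 with protein-coding genes only. At −log10 p of at least 10, the KOLPS p65 share was 24.4%, the κB share 18.3%, the H3K4me3 change from KO to KOLPS -5.66 points, the H3K27ac change from WT to WTLPS 16.8 and from WTLPS to KOLPS -12, and the SMC1 changes 25.1 and -31.2. With 50% of the p65 peak covered, H3K4me3 changed with LPS by -6.22 points in WT and -10.7 in KO, H3K27ac by -8.02 in KO and by -16.4 from WTLPS to KOLPS, and CTCF by -5.17 from WT to KO. With 500 bp either side of the summit, H3K27ac changed by -2.83 points from WTLPS to KOLPS, and CTCF by -3.17 with LPS in WT, -1.92 with LPS in KO, -10.3 from WT to KO and -9.05 from WTLPS to KOLPS. With promoters of 1 kb, CTCF changed by -1.83 points with LPS in KO. The κB share was 22.4% within 100 bp and 27.4% with the looser motif. The interval of the H3K4me3 change from WT to WTLPS included 0 at −log10 p of at least 10 and with promoters of 1 kb. That of H3K27ac from KO to KOLPS excluded 0 in opposite directions, at 2.94 points with 500 bp windows and 2.72 with equal limits within an antibody, against -8.02 with 50% coverage. The causes were not tested. No paired analysis was possible because each antibody and condition had 1 list. Weak sites near 6 fragments are at the limit of detection, and a missing peak is not a measured absence.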

Other observations

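The 334 induced p65 sites that lay at promoters of other gene types only had a lincRNA as the assigned gene at 97 sites, a processed pseudogene at 68, an antisense gene at 48 and a miRNA gene at 16, among others. H3K4me3 overlapped 23.7% of them in WT, against 73.1% of the 550 sites at protein-coding promoters, while H3K4me1 overlapped 91.6% against 68%. Protein-coding promoter sites differed from them by -7.78 points in STAT5 in WT (-13.7 to -2) and by 6.55 points in the consensus κB motif (1.85 to 10.9). The share with a KOLPS p65 peak was 16.5% and 20.5%, and the interval of the difference included 0 (4.08 points, -1.31 to 9.15). SMC1 was present at 92.2% and 88.5% in WTLPS.

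The following sites were chosen after their values were seen. The microRNA gene Mir155, which acts in inflammatory responses of myeloid cells, had an induced site with 45 fragments at -1035 bp and another with 7 fragments at -172 bp, neither with a KOLPS peak. The site at its host gene Mir155hg had 15 fragments in WTLPS and 11 in KOLPS. Mir155 and Mir155hg share a transcript, so these sites belong to the same locus.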
